A study of Drosophila melanogaster with 24 samples.

Results

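Binding of Su(Hw) and of Mod(mdg4) was compared site by site in mock Kc167 cells, a Drosophila melanogaster line derived from embryos and kept at 25 °C. The comparison used the pooled lists of chromatin immunoprecipitation sequencing (ChIP-seq) peaks for the 2 proteins, each made from 2 ChIP libraries. Su(Hw) was precipitated with a guinea pig serum and Mod(mdg4) with a rabbit serum against the Mod(mdg4)2.2 isoform; the labels do not say what the mock cells received. The members were all peaks on the large arms 2L, 3L, 2R, 3R and X and on arm 4, 3687 for Su(Hw) and 1732 for Mod(mdg4), or 5419 of the 25738 arm peaks in the 6 lists of the series. A Su(Hw) peak that shared at least 1 base with a Mod(mdg4) peak was called shared. CP190 peaks from the same mock cells (9435, also from 2 libraries with a rabbit serum) served as a further readout.

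Su(Hw) is a DNA-binding protein with an array of zinc fingers. Mod(mdg4)2.2, also called Mod(mdg4)67.2, carries a BTB domain and is known to reach insulator sites by binding Su(Hw) rather than by reading DNA itself. CP190 is a BTB and zinc-finger protein that binds many insulator factors, and the 3 proteins together form the complex at the insulator of the gypsy retrotransposon. Endogenous Su(Hw) sites are known to differ in which of these partners they carry.

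Each protein had 1 pooled list, so the values below have no replicate error and no test across samples was possible. Intervals are 95% Wilson intervals for a share and Newcombe intervals for a difference of shares, and cover counting error only. Read depth is unknown, and a site without a peak is a site where none passed the authors' threshold. Strength is the deposited fold enrichment of ChIP signal over background at the summit, the authors' own value, which was ranked only within a list. Its median was 7.14 for Su(Hw) (1.89 to 29.9) and 3.54 for Mod(mdg4) (1.54 to 16.9).

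The lists were nested in one direction. A Mod(mdg4) peak lay at 1307 Su(Hw) peaks (35.4%, 33.9 to 37), and 2380 had none. A Su(Hw) peak lay at 1306 of the Mod(mdg4) peaks (75.4%, 73.3 to 77.4), and 426 had none. Most of the latter, 377, were centromere-proximal. This means 2L from 22 Mb, 2R up to 5.5 Mb, 3L from 23 Mb, 3R up to 4.5 Mb and the last 2.04 Mb of X; the remainder is called the main arms below. On the main arms 1219 of 1268 Mod(mdg4) peaks had Su(Hw) (96.1%, 94.9 to 97.1), while 1217 of 3562 Su(Hw) peaks had Mod(mdg4) (34.2%, 32.6 to 35.7). Nearly every Mod(mdg4) peak on the main arms was thus at Su(Hw), and a minority of Su(Hw) sites carried it.

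**Figure D1:**
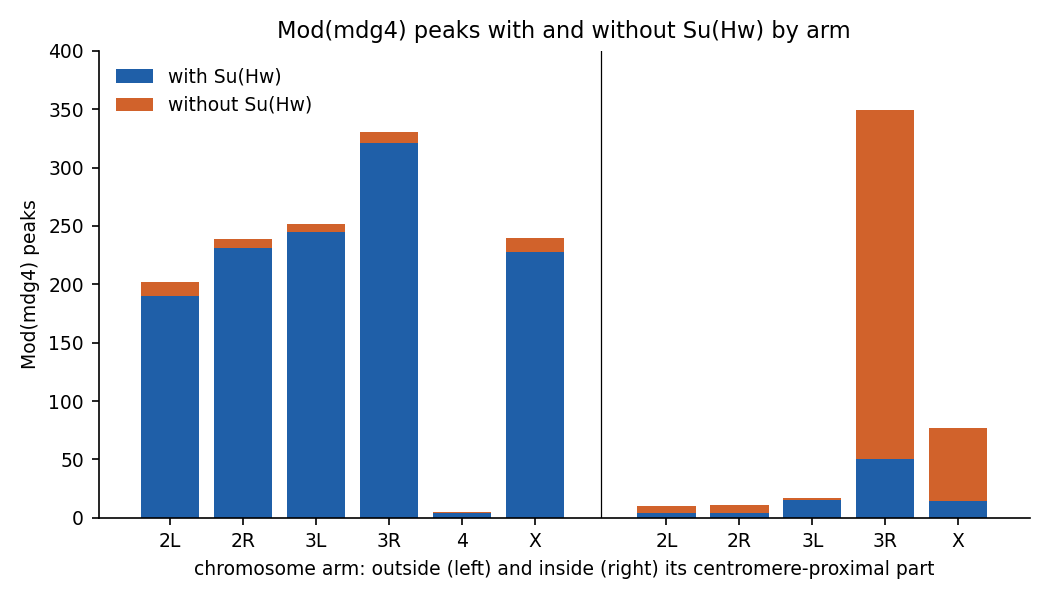
Number of Mod(mdg4) peaks (vertical axis) on each chromosome arm, outside the centromere-proximal part at left and inside it at right, divided into peaks with (blue) and without (orange) a Su(Hw) peak. The peaks without Su(Hw) stand mostly in the centromere-proximal parts of 3R (299) and X (63).

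The centromere-proximal parts behaved differently on both sides. They held 464 Mod(mdg4) peaks (26.8% of that list) and 125 Su(Hw) peaks (3.39%). Only 87 of these Mod(mdg4) peaks had Su(Hw) (18.8%), but 90 of these Su(Hw) peaks had Mod(mdg4) (72.0%). The arm 3R held 299 of the 377 Mod(mdg4) peaks without Su(Hw), and X held 63. By gene, 271 of the 377 lay in or nearest to Myo81F, a myosin heavy chain gene that spans much of the proximal part of 3R. Another 25 lay in or nearest to flamenco (lncRNA:flam), the piRNA locus on X known to silence gypsy; these genes were picked out after the values were seen. CP190 had a peak at 3 of the 377. The first antibody against CLAMP, a zinc-finger protein also mapped in these cells, had a peak at 344 of them, and the second CLAMP antibody at 7. The 5 weakest shared Su(Hw) peaks, all in Myo81F, likewise had a peak of the first CLAMP antibody and none of CP190. The first antibody had a peak at 219 of all 1307 shared Su(Hw) peaks and at 140 of the 1217 on the main arms. Most of the 90 centromere-proximal shared Su(Hw) peaks thus had one as well. A peak of this antibody was therefore frequent in these parts both with and without Su(Hw). These parts of the genome are rich in repeats, and what share of such peaks comes from reads with more than one possible origin was not tested.

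Fold enrichments of the Mod(mdg4) peaks without Su(Hw) were low in both settings. Their median was 2.58-fold with a highest value of 4.67, against a median of 4.18 and a highest of 16.9 with Su(Hw). On the main arms, the share with Su(Hw) rose over quintiles of Mod(mdg4) fold from 79.5% in the weakest to 91.5, 97.8, 100 and 100% in the others. These quintiles were ranked over the whole Mod(mdg4) list. The strongest of the 49 remaining peaks without Su(Hw) lay nearest to CG13170 (3.94-fold), in pHCl-1 (3.86, a pH-sensitive chloride channel), nearest to CG12075 (3.86), nearest to emp (3.46, a CD36-family membrane protein) and in if (3.45, the integrin subunit inflated). All 5 had a CP190 peak, of 7.27- to 16.7-fold, and 27 of the 49 had one of any strength. The nearest Su(Hw) summit was at a median of 5815 bases, and within 1000 bases for 6 of the 49.

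Stronger Su(Hw) peaks carried Mod(mdg4) more often. By quintiles of Su(Hw) fold, classes of equal size, the share was 14.4, 17.4, 29.4, 46.7 and 69.4%, a difference of 55 points (50.6 to 59.0) between the ends. Much of the sharing in the weakest quintile was centromere-proximal, where 62 of 87 such peaks had Mod(mdg4). On the main arms these same quintiles, ranked over the whole list, gave 6.77, 16.3, 28.7, 46.5 and 69.2%. Deciles of the whole list rose there at every step from 3.04% (9 of 296 peaks) to 78.9% (287 of 364). CP190 was already frequent at weak sites: it lay at 47.3% of the weakest and 97.0% of the strongest decile. The median Su(Hw) fold was 10.6 at shared sites and 5.71 at those without Mod(mdg4), and both groups spanned nearly the whole range (1.89 to 29.9 and 1.96 to 25.3).

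**Figure D2:**
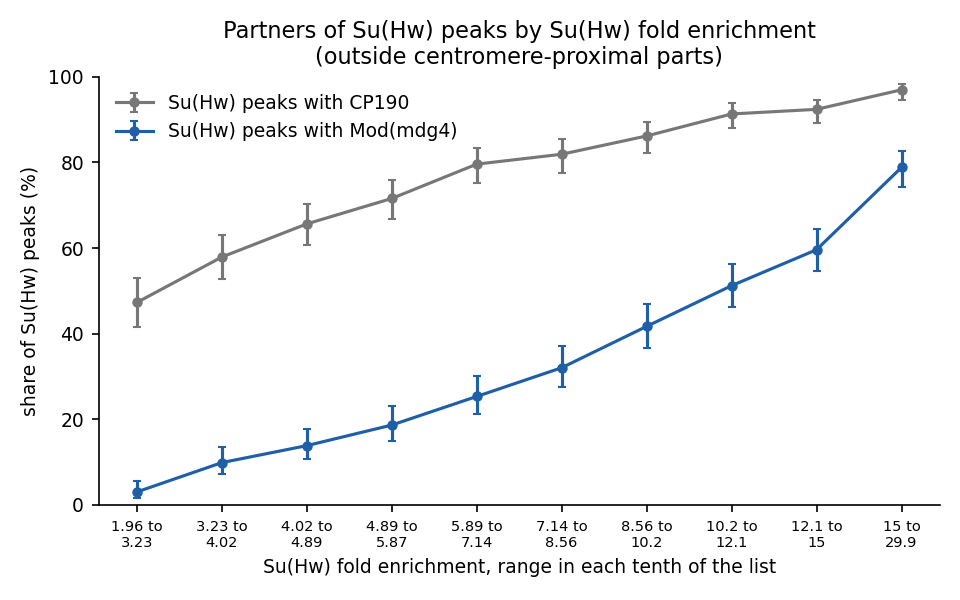
Share of Su(Hw) peaks on the main arms that overlap a Mod(mdg4) peak (blue) or a CP190 peak (grey), in percent. Peaks are grouped by decile of Su(Hw) fold enrichment in the whole list, and bars are 95% Wilson intervals. The Mod(mdg4) share rises from 3.04 to 78.9%, and CP190 from 47.3 to 97.0%.

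The strongest shared sites illustrate the top of the list. The strongest Su(Hw) peak, nearest to the antimicrobial peptide gene BaraA2 on 2R, had 29.9-fold Su(Hw), 13.1-fold Mod(mdg4) and 17.7-fold CP190 enrichment. The next lay in CG3097 on X (29.3, 11.8 and 18.5) and 121 bases from the odorant receptor gene Or43a (28.8, 12.8 and 17.5). The others of the leading 10 lay in or near CG3104, CG42674, Lmpt (a LIM-domain protein), Evi5, Loxl1 (a lysyl oxidase relative), Tk (the tachykinin neuropeptide precursor) and CG12617, with 25.1- to 28.4-fold Su(Hw). All 10 had CP190, at 12.9-fold or more. The peak 152 bases from Loxl1 had the highest Mod(mdg4) fold in the whole list, 16.9.

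Some of the strongest Su(Hw) sites had no Mod(mdg4). The leading one, 3628 bases from lncRNA:CR45302 on 2L, had 25.3-fold Su(Hw) and no CP190 peak either. Those in CG15894 (23.7-fold), beat-IIIc (23.3, a beaten-path family immunoglobulin protein), mub (22.6, an RNA-binding protein) and lncRNA:CR32553 (21.7) had CP190 at 9.45, 3.16, 4.92 and 9.45-fold. The CP190 fold of each of these 5 sites, where there was a peak, was below that of every one of the 10 leading shared sites. At the other end, the 5 weakest shared Su(Hw) peaks all lay in Myo81F, with 1.89- to 2.26-fold Su(Hw), 2.36- to 3.14-fold Mod(mdg4), no CP190 and a peak of the first CLAMP antibody. On the main arms the weakest, picked out after the values were seen, was 1272 bases from beat-Ib, with 2.33-fold Su(Hw), 4.18-fold Mod(mdg4) and 11.2-fold CP190. That Mod(mdg4) peak also overlapped the neighbouring Su(Hw) peak, whose CP190 fold was the same, so these values do not belong to the weak site alone.

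Su(Hw) sites with Mod(mdg4) were nearly all CP190 sites as well. CP190 lay at 76% of all Su(Hw) peaks, at 94.8% of shared peaks and at 65.7% of those without Mod(mdg4), a difference of 29.1 points (26.8 to 31.3). CP190 lay at 1215 of the 1217 shared peaks of the main arms. Read the other way, Mod(mdg4) lay at 1215 of 2770 Su(Hw) peaks with CP190 (43.9%) and at 2 of 792 without it (0.253%). The centromere-proximal sites again stood apart, with CP190 at 24 of 90 shared peaks. Without Mod(mdg4), CP190 lay at 1563 of 2380 peaks in the whole list and at 1555 of 2345 on the main arms. Few of the 35 centromere-proximal peaks without Mod(mdg4) thus had it, so CP190 was infrequent there in both classes.

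Among Su(Hw) peaks that had CP190, the level of CP190 tracked Mod(mdg4); this division was chosen after seeing the data. For the main arms, the CP190 peak had a median of 12.2-fold (interquartile range 9.56 to 14.9) at 1215 sites with Mod(mdg4). It had 4.34-fold (3.03 to 6.51) at 1555 sites without it, so the interquartile ranges did not meet. By quintiles of CP190 fold, Mod(mdg4) lay at 0 of 554, 39 of 554 (7.04%), 216 (39%), 467 (84.3%) and 493 (89.0%). The 0 of 554 in the quintile up to 3.61-fold has an upper Wilson bound of 0.689%. Su(Hw) and CP190 fold were themselves related across these 2770 peaks (Spearman 0.466), which come from different libraries but the same loci.

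**Figure D3:**
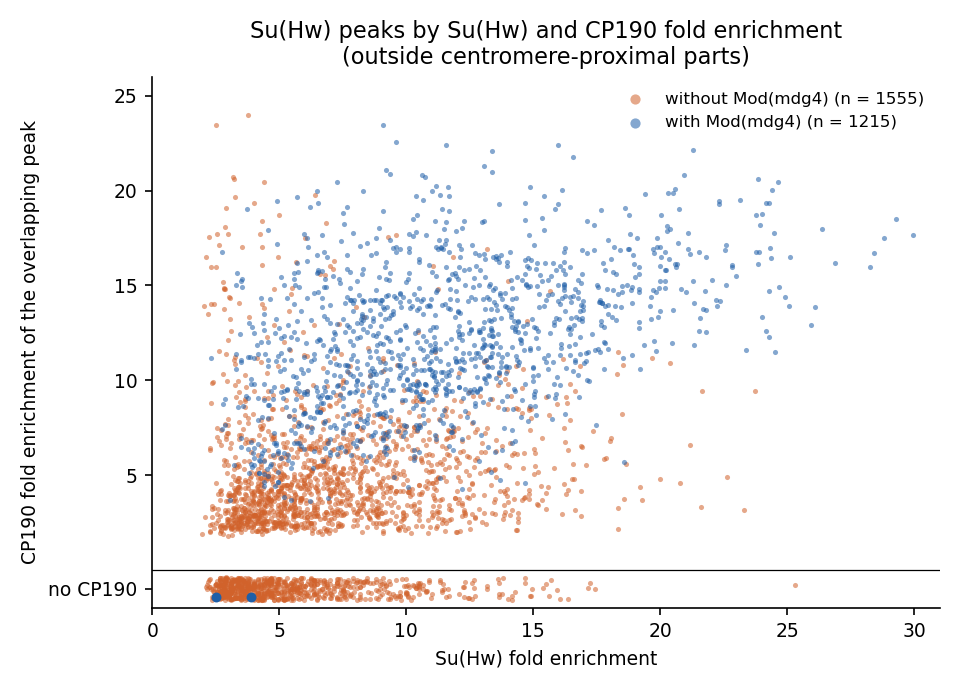
Each point is a Su(Hw) peak on the main arms, placed by its Su(Hw) fold enrichment (horizontal) and that of the overlapping CP190 peak (vertical), blue with and orange without Mod(mdg4). Peaks without CP190 are spread at random heights in the strip at the bottom, where 2 of 792 are blue, and no site at or below 3.61-fold CP190 is blue.

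With both levels held in quintiles, the Mod(mdg4) share varied little with Su(Hw) strength at middling CP190 and widely at high CP190. Both sets of quintiles were ranked anew among main-arm Su(Hw) peaks with CP190, so these Su(Hw) quintiles differ from those of the whole list. In the third CP190 quintile (5.78- to 9.21-fold), Mod(mdg4) lay at 32.2, 43.3, 43.1, 36.6 and 36.4% of peaks from the weakest to the strongest Su(Hw) quintile. Those Wilson intervals all overlap. In the strongest CP190 quintile (13.2-fold and over) the shares were 23.4% (11 of 47), 75, 92.8, 96.6 and 99.2% (254 of 256). The weak Su(Hw) peaks under strong CP190 were also less centred: their summits lay a median of 407 bases from the CP190 summit, against 37 bases for Su(Hw) peaks of the third and of the fourth quintile under the same CP190. Strong Su(Hw) sites with weak CP190 rarely had a Mod(mdg4) peak: in the strongest Su(Hw) quintile, 0 of 25 sites in the weakest CP190 quintile had one (upper bound 13.3%), and 4 of 49 in the next.

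**Figure D4:**
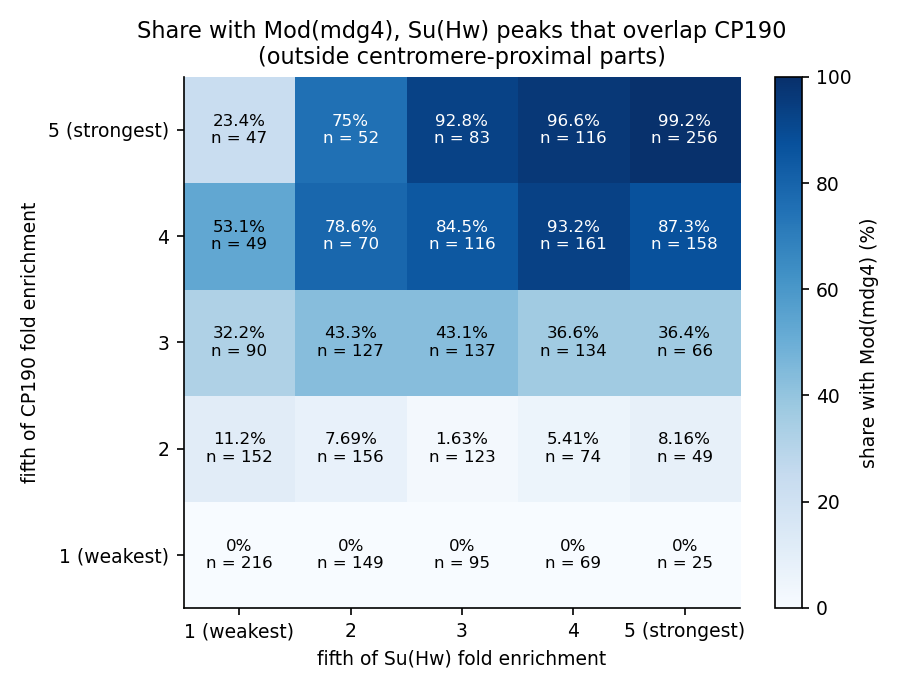
Share of Su(Hw) peaks with Mod(mdg4), in percent with the number of peaks, by quintile of Su(Hw) fold (horizontal) and of CP190 fold (vertical), for the 2770 Su(Hw) peaks with CP190 on the main arms. The share climbs from 0% in the bottom row to 99.2% in the top right cell, and the top left cell stays at 23.4%. A weak Su(Hw) peak can take its CP190 fold from a CP190 peak that also overlaps a neighbouring Su(Hw) peak.

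CP190 alone was not accompanied by Mod(mdg4). On the main arms, 6556 CP190 peaks had no Su(Hw), and Mod(mdg4) lay at 21 of them (0.320%, 0.210 to 0.489). Among the 655 of these with the highest CP190 fold (13.2 and over), Mod(mdg4) lay at 3 (0.458%). In the same range of CP190 fold, 462 of 504 CP190 peaks with Su(Hw) had Mod(mdg4) (91.7%, 88.9 to 93.8). Of the 1268 Mod(mdg4) peaks on the main arms, 1217 overlapped both other proteins, 2 had Su(Hw) alone, 27 had CP190 alone and 22 had neither. The 27 count Mod(mdg4) peaks without Su(Hw), and the CP190 peak of some may overlap Su(Hw) elsewhere, so they need not match the 21.

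Wider Su(Hw) peaks were shared more often, but width followed fold. By quintiles of width the share was 12.9, 27.0, 35.4, 45 and 56.9%, a difference of 44.0 points (39.6 to 48.2). Width and fold were correlated across the 3687 peaks (Spearman 0.748; both come from the same reads). With width divided anew within each quintile of fold, the mean difference between the widest and narrowest peaks was 3.67 points. In the weakest fold quintile it was 12.1 points (3.53 to 20.5), and 6.97 (0.961 to 13.4) on the main arms. In the fourth it was -10.5 points with an interval that includes 0, and -12.3 (-23.4 to -0.798) on the main arms. Fold divided within quintiles of width kept a mean difference of 38 points. The narrowest quintile was the exception, where the strongest peaks had Mod(mdg4) at 17.6% and the weakest at 19.0%, though on the main arms these were 14.7 and 4.23%.

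The arms differed little. The share with Mod(mdg4) was 31.7% on 2L, 38.6% on 2R, 36.2% on 3L, 37.2% on 3R and 32.6% on X, and 4 of the 5 Su(Hw) peaks on arm 4 had it. X was 3.61 points below the autosomal arms together (difference -3.61, -7.32 to 0.256), an interval that includes 0. Within the strongest quintile of Su(Hw) fold, picked out as the one with the largest difference, it was -8.08 points (-16.7 to 0.0899). Leaving out the centromere-proximal parts there gave -8.71 (-17.4 to -0.440). From the weakest quintile up, the others gave 2.45, 0.969, -5.29 and -6.28 points on the main arms, each with an interval that includes 0. Among Su(Hw) peaks with CP190, the mean difference within quintiles of CP190 fold was -1.79 points. Arm 2R exceeded 2L by 6.89 points (1.53 to 12.2), a pair picked out as the extremes of the 5 large arms. The median Su(Hw) fold on whole arms was 8.02 on 2R and 6.88 on 2L. At main-arm Su(Hw) sites with CP190, the median CP190 fold was 8.01 on 2R and 6.80 on 2L. It was 7.40 on X, 7.32 on 3R and 7.05 on 3L, so X exceeded 3R and 3L here but not in the share with Mod(mdg4).

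Su(Hw) sites close to a gene end carried Mod(mdg4) more often than the rest. A gene end is either boundary of an annotated gene, since strand was not used here. With the summit within 500 bases of an end, 379 of 666 peaks were shared (56.9%), against 928 of 3021 elsewhere (30.7%), a difference of 26.2 points (22.1 to 30.2). The share was highest close to ends and outside genes (230 of 369, 62.3%). It was 50.2% close to ends inside genes, 36.1% between genes away from ends and 28.2% deep inside genes. With distance it fell, on the main arms, from 64.2% within 50 bases to 19.7% beyond 10000 bases. Ends of protein-coding genes had 60.5% (338 of 559), and ends of lncRNA genes had 34.8% (32 of 92). Ends of antisense RNA genes had 66.7% (14 of 21), and those of snRNA genes 40% (4 of 10). CP190 lay at 92.7% of the Su(Hw) peaks at protein-coding ends and 81.5% at lncRNA ends. At antisense RNA ends it lay at 81% and at snRNA ends at 100%. Over these gene types, the CP190 share thus did not follow the share with Mod(mdg4). Close to ends on the main arms, median CP190 fold was 11.9 at peaks named by protein-coding genes and 7.20 at lncRNA ones.

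The median Su(Hw) fold was somewhat higher close to ends, 7.64 against 7.01 away from them. The gene-end difference was 31, 32, 33.2 and 22.8 points in the second to the strongest quintile of Su(Hw) fold, with every interval above 0, and -1.17 points (-7.08 to 6.79) in the weakest. Leaving out the centromere-proximal peaks turned the weakest quintile to 6.08 points (0.776 to 13.6). CP190 also differed between peaks close to ends and the others. CP190 lay at 90.5% of Su(Hw) peaks close to ends and 72.8% of the others, and on the main arms its median fold where present was 11.5 and 6.38. Within quintiles of CP190 fold, Mod(mdg4) lay at 36.1% of peaks close to ends and 39.6% of the rest in the third, at 85.5 and 83.8% in the fourth and at 89.1 and 88.9% in the strongest. All 3 pairs of intervals overlap. Averaged over quintiles of CP190 fold on whole arms, the gene-end difference was -0.900 points, in a division chosen after seeing the data. The CP190 values come from the same loci, and what underlies the gene-end difference was not tested.

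**Figure D5:**
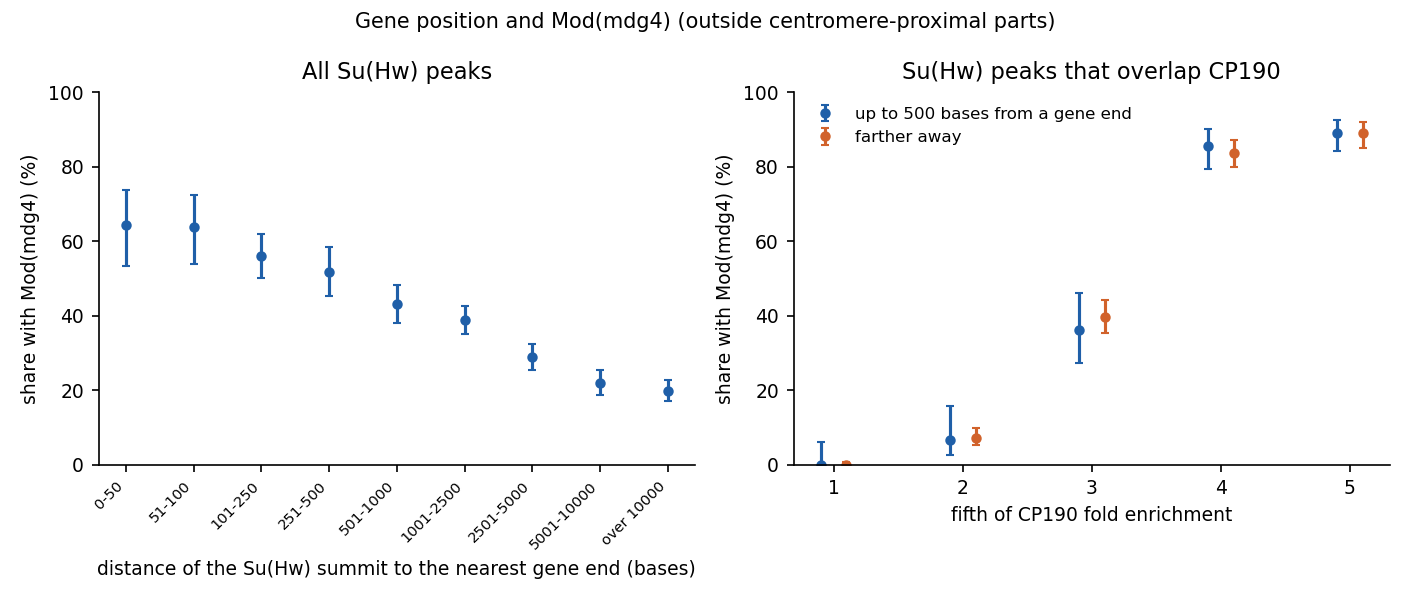
Share of Su(Hw) peaks with Mod(mdg4), in percent with 95% Wilson intervals, on the main arms. Left, by distance of the summit to the nearest gene end in bases, where it falls from 64.2 to 19.7%; right, by quintile of CP190 fold for peaks up to 500 bases from an end (blue) and farther away (orange), where both run from 0% to 89.1 and 88.9%.

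Where Su(Hw) and Mod(mdg4) peaks overlapped, their summits mostly lay close together. The 1307 Su(Hw) and 1306 Mod(mdg4) peaks formed 1317 overlapping pairs, with a median of 26 bases between summits (interquartile range 11 to 53). Summits lay within 50 bases in 72.7% of pairs and within 250 bases in 95.6%. The pairs were chosen by overlap, and their median peak width was 576 bases for Su(Hw) and 456 for Mod(mdg4). Overlap alone limits how far apart such summits can lie, so the share within 250 bases says little about a common position. The median of 26 bases was small against these widths. The 93 centromere-proximal pairs were looser, with 43.0% within 50 bases and the Mod(mdg4) peak the wider one in 67.7%, against 20.9% elsewhere. The median distance was 85.5 bases in the weakest Su(Hw) quintile (44 on the main arms) and 20 in the strongest.

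The fold of Mod(mdg4) at a shared site rose with that of Su(Hw). Its median was 2.89, 3.37, 3.70, 4.35 and 5.49 over the quintiles of Su(Hw) fold, and the values were correlated across the 1317 pairs (Spearman 0.519, Pearson 0.601). Over the 1215 shared sites with CP190 on the main arms, Mod(mdg4) fold had a Spearman correlation of 0.657 with CP190 fold and 0.491 with Su(Hw) fold. These are descriptions across loci, and the loci are the same in the lists compared. Close to gene ends the median Mod(mdg4) fold was 4.55 and away from them 4.03, although the Su(Hw) fold at these pairs was 9.85 and 11.1.

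CLAMP lay at shared sites somewhat more often. The first antibody had a peak, on the main arms, at 11.5% of shared sites and 5.16% of Su(Hw) sites without Mod(mdg4) (6.34 points, 4.41 to 8.43). The second had 9.45 and 5.54% (3.91 points, 2.09 to 5.88). By distance to the next Su(Hw) summit, Mod(mdg4) lay at 36.1% of peaks with one within 2000 bases, 34.9% where it was farther but within 10000, 34.4% (31.9 to 37) within 50000 and 43.2% (36.9 to 49.7) beyond. On the main arms alone these were 33.2, 33.8, 34.1 (31.6 to 36.7) and 40.3% (33.7 to 47.3), where the intervals of the last pair overlap. Shared sites inside genes lay in shorter genes. The median length of the host gene on the main arms was 31270 bases for shared and 45240 bases for other Su(Hw) peaks.

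Sites at known genes gave examples of both classes. The site just beyond the annotated end of yellow (y), on the side of achaete, was shared; the endogenous 1A-2 insulator is known to lie between these genes. It is at chrX:361264-361895 (dm6), with its summit 356 bases from the end of y, and had 15.4-fold Su(Hw), 9.90-fold Mod(mdg4) and 19.7-fold CP190. It was the single Su(Hw) site of the 5 genes listed for the yellow and achaete-scute region. Of 30 genes for insulator and architectural proteins, none had a Su(Hw) summit within 500 bases of an end, against 4.68% of all 17684 genes. Mod(mdg4) had a summit there at 1 of the 30, against 3% of all genes. That gene was su(Hw) itself, which holds a shared site at chr3R:14307701-14308598, 534 bases from its end by the Su(Hw) summit, with 22.4-fold Su(Hw), 11-fold Mod(mdg4) and 14.2-fold CP190. The gene shep, whose product is an RNA-binding protein known to antagonise gypsy insulator activity in the nervous system, held 5 Su(Hw) peaks, of which 1 was shared. That peak had the highest CP190 fold of the 5, 7.93, while the others had 3.32, 3.32, 3.20 and no peak.

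Su(Hw) is known to bind and silence neuronal genes outside the nervous system. Of 19 genes of synapse and excitability, 13 had a Su(Hw) summit inside or within 500 bases, against 9.84% of all genes, and 6 had Mod(mdg4), against 5.38%. Many of these genes are long, and their length was not matched. They held 44 Su(Hw) peaks, of which 9 were shared, and on the main arms 4 of 38 were (10.5%, 4.17 to 24.1), below the 34.2% of all such Su(Hw) peaks. CP190 lay at 18 of those 38 (47.4%), against 77.8% of all main-arm Su(Hw) peaks. The median Su(Hw) fold of the 38 was 5.775, against 7.14 in the whole Su(Hw) list. Most of them lay inside genes and more than 500 bases from an end, a class with 26.4% shared on the main arms. Neither fold nor gene position was matched in this comparison. The potassium channel gene Sh held 10 Su(Hw) peaks of 2.38- to 9.37-fold, none with Mod(mdg4). The sodium channel gene para held 6 and the calcium channel gene cac held 3, also with none. Both peaks close to ends of the vesicle gene nSyb (13.2- and 6.27-fold) and the peak at an end of Rph (8.18-fold), which codes for rabphilin, lacked it.

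The shared sites in this group were few. The 5 peaks in Snap25, in the centromere-proximal part of 3L, were all shared, with 4.94- to 9.16-fold Su(Hw), 5.56- to 7.50-fold Mod(mdg4) and 3.38- to 7.62-fold CP190. The other 4 lay in or near Syn, brp, CadN and fne. Within genes that held both kinds, the shared peak was the one with more CP190 and not always the one with more Su(Hw). In CadN, the gene of N-cadherin, the shared peak had 8.05-fold Su(Hw) and 12.2-fold CP190, and a stronger Su(Hw) peak without Mod(mdg4) (16.1-fold) had 2.95-fold CP190. In brp, which encodes the active-zone protein Bruchpilot, the shared peak had 13.4-fold Su(Hw) and 11.4-fold CP190, and the unshared one 18.3- and 2.17-fold. These sites were picked out after their values were seen.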

How the data were processed

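ChIP-seq peak lists from mock Kc167 cells were used as deposited, for Su(Hw), Mod(mdg4), CP190 and 2 CLAMP antibodies. Row names carry the word pooled, so each list joins the 2 ChIP libraries of a group. The submitters' processing notes name MACS2 2.1.0.20150731 (a peak caller), Bowtie2 2.2.9 (an aligner), cutadapt 1.8.1, Picard, SAMtools 1.2 and build dm6. The notes as held here give no settings or threshold for them, and read depth is unknown. The deposited fold enrichment is the ratio of ChIP to background signal at a summit. The deposited score is 10 times the -log10 q-value rounded down, which held for all 3687 Su(Hw) and 1732 Mod(mdg4) arm peaks. The -log10 q-value as deposited chose the top 50% in an alternative.

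Overlaps, classes of equal size and intervals were computed with Python 3.11.15, NumPy 2.4.6, pandas 2.3.3 and SciPy 1.17.1, and the overlap code was tested on simulated lists. Ties at class bounds stayed in rank order. A Su(Hw) peak took the highest fold of the CP190 peaks it overlapped. Gene positions came from the RefSeq gene table of assembly Release 6 plus ISO1 MT (the dm6 assembly; 17684 genes on the arms), which was used without strand, exons or sequence. The planned motif search and promoter sequences are therefore not given. A peak was named by the shortest gene that holds its summit, or else the nearest gene.

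Peaks named by rule were the 10 strongest shared Su(Hw) peaks, the 5 strongest without Mod(mdg4), the 5 weakest shared, the 5 strongest Mod(mdg4) peaks without Su(Hw) inside and outside the centromere-proximal parts, and members of 3 gene lists (54 genes). The comparison, its members and these lists were chosen with earlier results of these data known. Other overlap rules, gene-end distances, numbers of classes, a q-value filter, removal of the centromere-proximal parts and divisions by fold, width and CP190 were tried as alternatives.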

Additional observations from a re-analysis of the deposited data

Results flagged for a closer look

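Peaks on Y, M and unplaced sequences entered no comparison above, although both lists have them. There were 102 such Su(Hw) peaks, of which 81 overlapped a Mod(mdg4) peak (79.4%), and 186 such Mod(mdg4) peaks, of which 75 overlapped a Su(Hw) peak (40.3%). Most lay on unplaced sequences, 86 and 176, and their median fold was 3.42 for Su(Hw) and 3.29 for Mod(mdg4). A peak list has no control sample to set these counts against.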

How the results depend on the processing

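The 9 results, each a share, a difference of shares or a median, were recomputed in 52 alternatives: 33 values stayed within the interval of the reported one, 18 moved outside it and 1 turned its direction. An overlap of at least 50% of the shorter peak kept all 9 within. With summits within 250 bases, the share of Mod(mdg4) peaks with Su(Hw) was 72.8% and the CP190 difference 31.9 points. In the 50% of each list with the highest -log10 q, Mod(mdg4) lay at 38.9% of Su(Hw) peaks, Su(Hw) lay at 82.6% of Mod(mdg4) peaks, the width difference was 10.5 points, the median summit distance 22 bases, the difference in median Su(Hw) fold 3.21 and the CP190 difference 56.0 points. Without the centromere-proximal parts, Su(Hw) lay at 96.1% of Mod(mdg4) peaks, the fold difference was 62.4 points and the CP190 difference 33.5 points. With 10 classes the fold difference was 62.8 points, and within quintiles of width it was 38 points. Within quintiles of fold the width difference was 3.67 points. The remaining alternatives were chosen after seeing the data. Within quintiles of fold and without the centromere-proximal parts, the width difference was 1.98 points. Among Su(Hw) peaks with CP190 the fold difference was 60.6 points. Within quintiles of CP190 fold, the fold difference was 12.4 points, the width difference 11.2 points and the gene-end difference turned to -0.900 points. Some of these alternatives use fewer peaks and others use all of them, and the cause of the shifts was not tested.

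No paired analysis was possible because the deposited lists pool the libraries of a group; leaving out a library was not possible for the same reason. Depth is unknown, so a missing Mod(mdg4) peak is not shown to be missing binding.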
